A study of Mus musculus with 48 samples.

Results

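A set of 10 genes of fatty acid handling was followed across mouse striatal libraries: Fabp5 and Fabp7, which bind fatty acids, Acsbg1, Acsl3 and Acsl6, which activate them, Cpt1a, Acaa2 and Hadha, which bring them into mitochondria and oxidise them, and Ppara and Ppargc1a, which control such genes. The 10 genes were taken by symbol from the 24060 rows of the read-count table, and all 10 passed the filter on low counts in each of the 12 comparisons. RiboTag was used, in which a tagged ribosomal protein (Rpl22-HA, delivered to astrocytes by a virus 3 weeks earlier) allows ribosome-bound RNA of 1 cell type to be precipitated from a tissue lysate. Each of 24 adult mice by the series description gave a pair of libraries, called IP (precipitated RNA) and input (RNA before precipitation), 48 in all, and both fractions carry the same astrocyte tissue label.

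The groups held 4 replicates each. In the first experiment, C57 mice that had received vehicle were compared with mice that had received MPTP, a toxin of dopamine neurons, in 4 doses of 20 mg/kg; the dose is per body weight, while the labels describe an injection into striatum. In the second, wild-type littermates were compared with SAPAP3 knockout mice, which lack a postsynaptic scaffold protein and are used in research on obsessive-compulsive disorder. In the third, all mice were R6/2, a Huntington's disease model carrying a mutant huntingtin fragment, and they received either a control cargo or hM4Di, a designed Gi-coupled receptor, in striatal astrocytes. Whether the receptor's agonist was given is not stated, and no group of that experiment is labelled wild-type. The virus drives the tag in astrocytes around an injection site, so IP libraries are meant to hold RNA of infected cells. Input libraries hold RNA of the whole lysate. In such bulk samples fewer cells of a type and less RNA per cell cannot be told apart.

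Fatty acids are poorly soluble and move through the cytosol on fatty acid binding proteins. Acyl-CoA synthetases couple them to coenzyme A, which commits them to membrane lipids, to storage or to oxidation, and carnitine palmitoyltransferase 1 makes the carnitine esters that enter mitochondria, the step inhibited by malonyl-CoA. Inside, repeated rounds of beta-oxidation release acetyl-CoA. PPAR alpha is a nuclear receptor that binds fatty acids and pairs with RXR on DNA, and PGC-1 alpha, the product of Ppargc1a, is a coactivator of mitochondrial genes. Among brain cells, astrocytes are regarded as the main site of fatty acid oxidation.

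PPAR and RXR bind repeats of the hexamer AGGTCA, so the members' promoters were searched for it on both strands, and for DR1, the repeat of that hexamer with 1 base between the copies (AGGTCANAGGTCA). RefSeq windows on GRCm38.p6, from 250 bases before to 50 after a gene start, were found for 8 of the 10 members (10 windows, 3 of them for Acsl6), and none for Fabp5 or Acaa2. No window held DR1, which 0.0396% of 32851 windows of all genes did, and the hexamer was found in 3 of the 10 windows, against 16.3% of all windows. The parts of those 3 windows before the annotated exons are shown, because they belong to a binding protein, a synthetase and the carnitine step; capitals mark the hexamer, here on the opposite strand.
Fabp7 (chr10:57784673-57784880, plus strand): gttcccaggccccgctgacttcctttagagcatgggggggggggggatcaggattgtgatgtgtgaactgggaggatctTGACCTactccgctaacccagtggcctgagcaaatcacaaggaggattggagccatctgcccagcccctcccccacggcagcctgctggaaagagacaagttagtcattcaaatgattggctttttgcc
Acsl6 (chr11:54303574-54303797, plus strand): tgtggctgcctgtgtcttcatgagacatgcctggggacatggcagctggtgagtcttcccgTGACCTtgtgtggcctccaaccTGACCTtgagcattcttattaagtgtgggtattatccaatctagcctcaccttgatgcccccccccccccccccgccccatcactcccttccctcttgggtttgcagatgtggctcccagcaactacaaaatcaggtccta
Cpt1a (chr19:3323051-3323284, plus strand): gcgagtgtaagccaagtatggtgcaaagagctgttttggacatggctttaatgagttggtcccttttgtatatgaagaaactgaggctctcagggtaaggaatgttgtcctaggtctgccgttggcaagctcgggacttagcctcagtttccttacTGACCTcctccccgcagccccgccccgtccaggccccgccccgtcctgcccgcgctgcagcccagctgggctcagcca
In Fabp7 the match began 171 bases before the start, in Acsl6 the 2 matches began 189 and 167 bases before it, and in Cpt1a the match began 94 bases before it. The Cpt1a stretch lies in an intron of a longer GENCODE transcript of the gene, and the other 2 lie before the gene. A match describes the letters only and is not a binding site.

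The IP libraries held 34.3 to 61.5 M counted reads and the input libraries 21.9 to 39.0 M, and the members had between 152 reads (Fabp7) and 53031 reads (Acsbg1) in a library. Levels are given as CPM, read counts relative to library size with TMM scaling over all libraries. All 20 astrocyte markers were over 2-fold higher in IP than in input in each experiment (median log2 fold change 2.27 to 2.34). Of the microglial markers 15 of 15 were over 2-fold lower, but 7 to 9 of 11 striatal interneuron markers were also over 2-fold higher. Of the ependymal and choroid plexus markers 7 of 10 were over 2-fold higher in each experiment. So were 5 of 12 oligodendrocyte and 5 of 10 oligodendrocyte precursor markers in the SAPAP3 experiment. In the other experiments none of these was over 2-fold higher, and 6 of 10 precursor markers were over 2-fold lower in R6/2. Summed oligodendrocyte levels were 6467 to 9723 CPM in vehicle IP and 7591 to 8102 CPM in vehicle input. Dlgap3, the gene deleted in SAPAP3 knockouts, lay at 55.3 to 95.6 CPM in knockout IP libraries against 168 to 230 CPM in wild-type ones, so reads of it remained. WT replicate 4 and KO replicate 1 held Xist reads (1516 in IP and 5513 in input of the WT mouse, 6281 and 7418 of the KO mouse), while the other mice of that experiment held at most 105. The IP and input titles of MPTP replicate 2 name different mice, and the title of WT replicate 3 may join 2 mice. The experiments differ in the number that opens their titles and in mouse line as well as in treatment, so their levels are described and not tested against each other.

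All 10 members were higher in the astrocyte precipitate than in the lysate in each experiment, and no IP library of any condition fell to the level of an input library of its own experiment. Over 2-fold enrichment with an adjusted p under 0.05 was reached by 8 of 10 members in the MPTP experiment and by 9 of 10 in both the SAPAP3 and R6/2 experiments. Of all genes tested, 12.5%, 11.9% and 11.3% were so enriched. The members' median log2 fold change was 1.73, 1.75 and 1.87, against −0.02, −0.0006 and −0.02 over all genes.

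**Figure D1:**
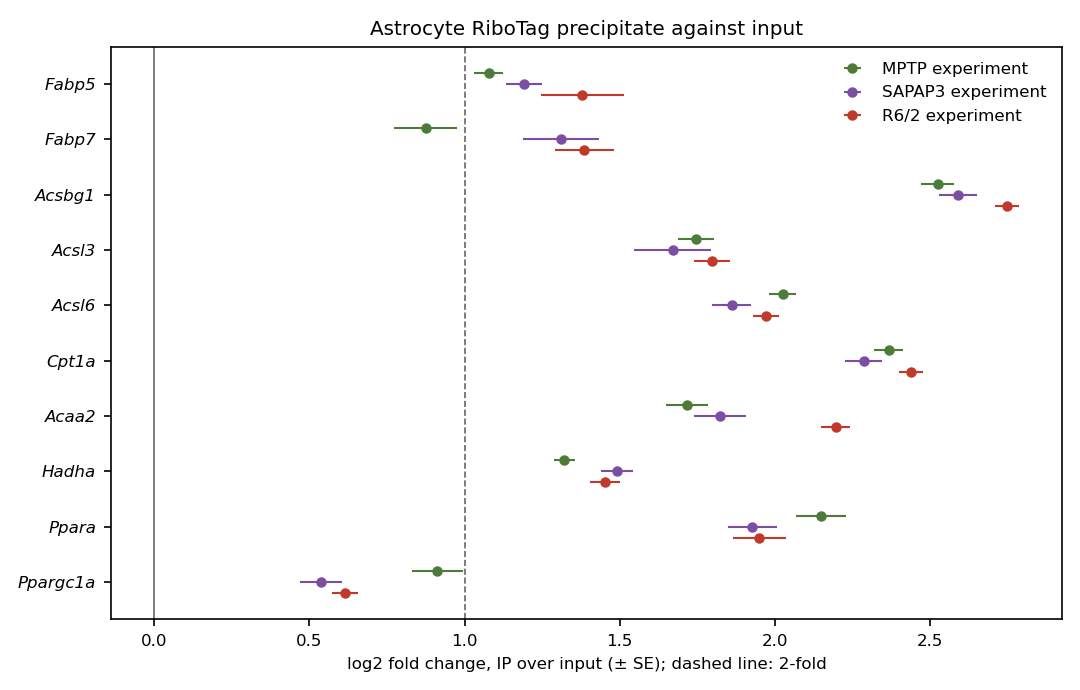
Log2 fold change of IP over input for each gene (horizontal axis, ± SE) in the MPTP, SAPAP3 and R6/2 experiments (colours, 16 libraries each), with the 2-fold line dashed. Acsbg1 lies farthest right in all 3 experiments (2.52, 2.59 and 2.75) and Ppargc1a stays left of the dashed line (0.91, 0.54 and 0.62).

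The binding proteins were among the less enriched members. Fabp5 (chromosome 3, 10012548 to 10016607, plus strand, GRCm38), the epidermal type fatty acid binding protein, had 107 to 118 CPM in vehicle IP libraries and 49.2 to 54.9 CPM in vehicle input libraries. Its log2 fold change of IP over input was 1.08 ± 0.0463 (SE) for MPTP, 1.19 ± 0.0581 for SAPAP3 and 1.38 ± 0.133 for R6/2 libraries. Near-identical Fabp5 copies are known in mouse genomes, and reads shared with them could not be separated here. Fabp7 (chromosome 10, 57784881 to 57788450, plus strand), the brain type protein of astrocytes and radial glia, was at 25.8 to 33.7 CPM in vehicle IP and 11.8 to 15.3 CPM in vehicle input. Its log2 enrichment was 0.87 ± 0.102, 1.31 ± 0.122 and 1.39 ± 0.0964 in the 3 experiments, so it passed 2-fold in the SAPAP3 and R6/2 experiments and not in the MPTP experiment. Fabp5 lost its 2-fold enrichment in the MPTP experiment with upper-quartile scaling (0.94).

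Both binding proteins had different mean levels in the 3 experiments. Fabp5 averaged 113 ± 4.28 CPM (SD, n = 4) in vehicle IP and 107 ± 7.62 in MPTP IP. It averaged 85.8 ± 12.4 in WT IP, 85.2 ± 4.45 in KO IP, 53.4 ± 6.13 in cargo IP and 43.4 ± 11.3 in hM4Di IP. Neighbours in that order within an experiment overlapped, whereas the highest R6/2 library (61.9 CPM) lay under the lowest SAPAP3 library (74.5 CPM). Input followed the same order of experiments, from 51.5 ± 2.52 in vehicle through 38.4 ± 1.62 in WT to 19.2 ± 1.90 in cargo. Fabp7 had another order, with 40.0 ± 6.49 in hM4Di IP, 30.9 ± 4.11 in cargo IP, 28.8 ± 3.43 in vehicle IP, 21.6 ± 5.17 in MPTP IP, 18.7 ± 3.48 in KO IP and 17.0 ± 3.51 in WT IP. Thus the R6/2 groups had the lowest mean Fabp5 and the highest mean Fabp7 levels in IP, although Fabp7 in both groups overlapped with vehicle.

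**Figure D2:**
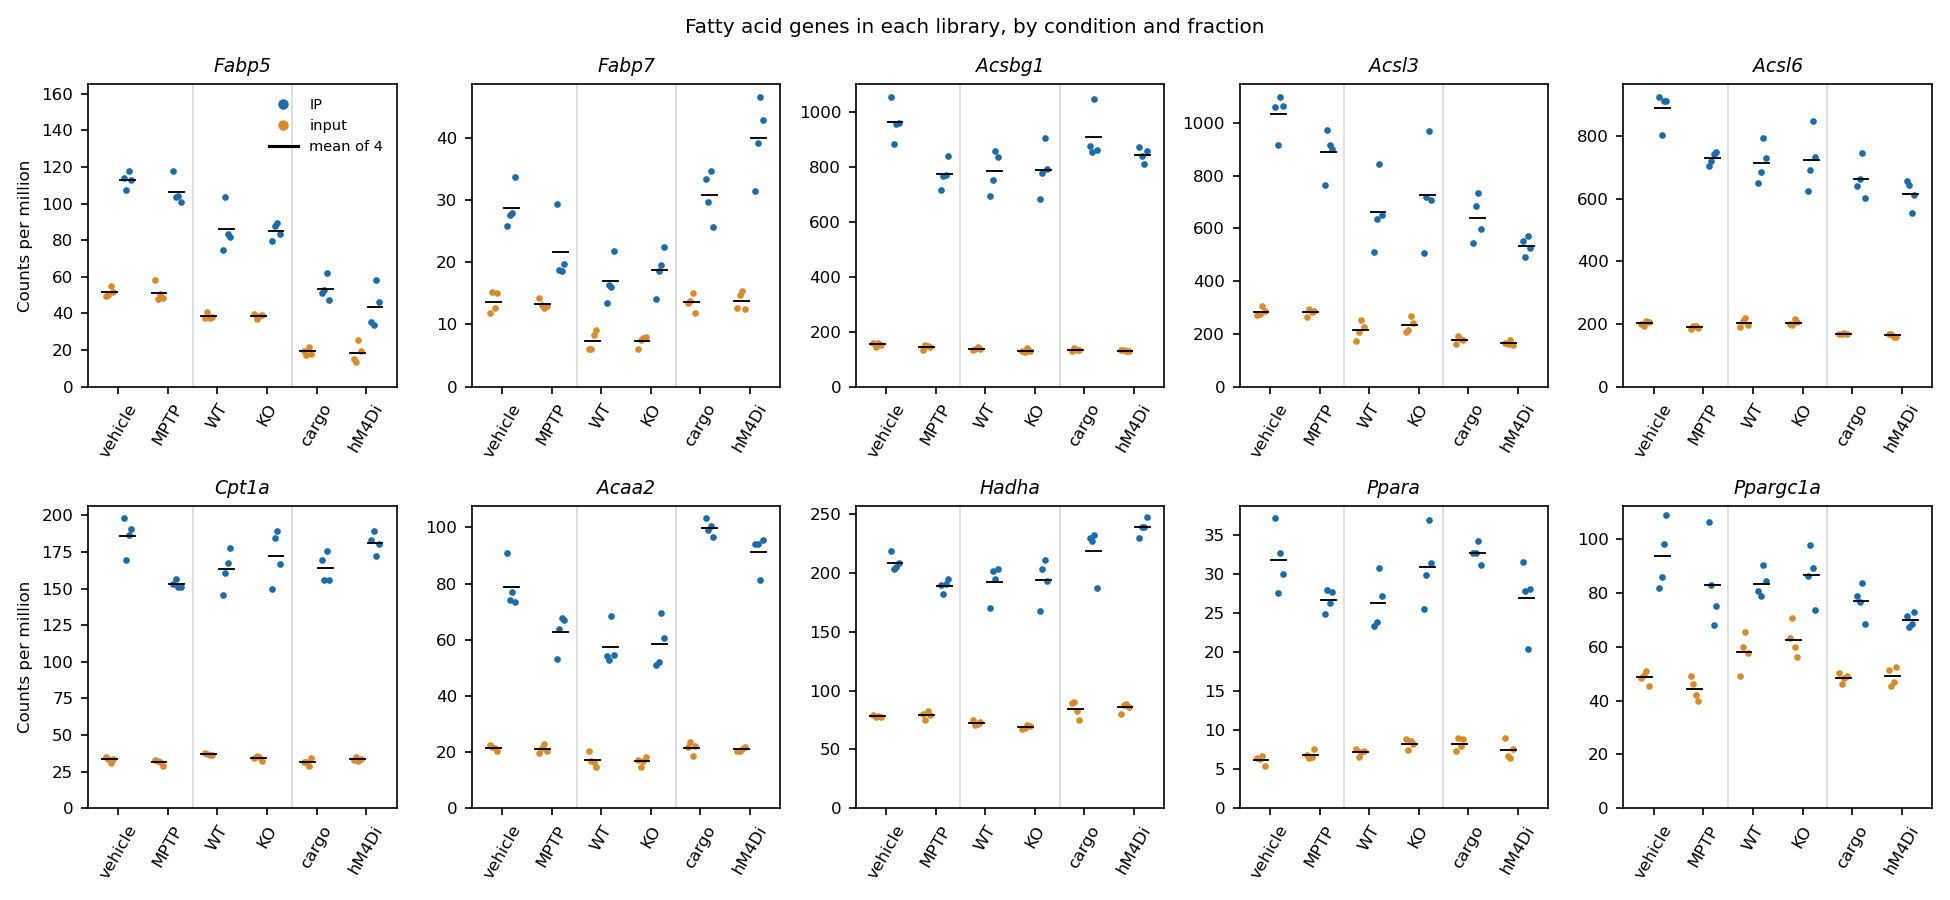
CPM of each gene (1 panel each, vertical axis from 0) in the 48 libraries, by condition (horizontal axis) and fraction (blue IP, orange input); points are libraries and bars the means of 4. Fabp5 has a mean of 113 CPM in vehicle IP and 43.4 in hM4Di IP, and Acaa2 is highest in cargo IP (99.9).

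The synthetases were the most abundant members in IP libraries. On the deposited FPKM scale, which divides by gene length and so allows genes to be compared, vehicle IP libraries had 283 to 332 FPKM of Acsbg1, 231 to 263 of Acsl6 and 206 to 246 of Acsl3. The next member, Fabp5, had 99.8 to 109 FPKM there, and Ppara had 3.24 to 4.30. Acsbg1 (chromosome 9, 54604877 to 54661870, minus strand), the bubblegum type acyl-CoA synthetase of long and very long chains, was the most enriched member, with log2 fold changes of 2.52 ± 0.0528, 2.59 ± 0.0615 and 2.75 ± 0.0390. Acsl6 (chromosome 11, 54303798 to 54364756, plus strand), a brain form linked to docosahexaenoic acid, had 2.02 ± 0.0422, 1.86 ± 0.0624 and 1.97 ± 0.0412. Acsl3 (chromosome 1, 78657825 to 78707743, plus strand), a form of the endoplasmic reticulum and lipid droplets, had 1.75 ± 0.0569, 1.67 ± 0.125 and 1.80 ± 0.0589.

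In the SAPAP3 experiment Acsl3 was the synthetase that varied most among IP libraries. In WT IP libraries it had 511, 636, 843 and 651 CPM, and in KO IP libraries 506, 717, 970 and 709 CPM. The ranges of the genotypes overlapped over most of their width. In the same libraries Acsl6 ran from 649 to 793 CPM (WT) and from 623.1 to 848.1 CPM (KO). Acsl3 averaged 1034 ± 80.1 CPM in vehicle IP and 889 ± 88.4 in MPTP IP, and 640 ± 85.5 in cargo IP and 534 ± 34.1 in hM4Di IP. Acsbg1 was steadier over experiments, with IP means between 774 ± 50.9 (MPTP) and 965 ± 69.5 CPM (vehicle); on the FPKM scale its highest mean was that of cargo IP (319.5 ± 30.1).

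The carnitine step and the oxidation enzymes were enriched in every experiment. Cpt1a (chromosome 19, 3322334 to 3385733, plus strand), the outer-membrane enzyme of the carnitine shuttle, had 169 to 198 CPM in vehicle IP and 31.1 to 34.8 CPM in vehicle input. Its log2 enrichment of 2.37 ± 0.0466, 2.28 ± 0.0598 and 2.44 ± 0.0393 was the second largest of the 10. Acaa2 (chromosome 18, 74779197 to 74806208, plus strand), the mitochondrial ketoacyl-CoA thiolase, had 1.72 ± 0.0672, 1.82 ± 0.0838 and 2.19 ± 0.0478. Hadha (chromosome 5, 30118304 to 30155162, minus strand), a subunit of the trifunctional protein that carries the long-chain hydratase and dehydrogenase, had 1.32 ± 0.0342, 1.49 ± 0.0521 and 1.45 ± 0.0492. Of the 19 mitochondrial oxidation genes listed, Acaa2 and Hadha included, 17 were over 2-fold enriched in each experiment and none was depleted.

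Among Cpt1a, Acaa2 and Hadha, the IP group means of Acaa2 spread most widely relative to their level. It had 103, 99.2, 101 and 96.7 CPM in cargo IP libraries and 94.2, 94.1, 81.3 and 95.4 in hM4Di IP libraries. Vehicle IP libraries had 90.8, 74.0, 77.1 and 73.6 CPM. Means were 62.9 ± 6.79 CPM in MPTP IP, 58.3 ± 8.57 in KO IP and 57.5 ± 7.44 in WT IP, 3 groups that overlapped. In input it lay between 14.6 and 23.6 CPM in all experiments. Cpt1a, by contrast, had IP means of 153 ± 2.58 to 186 ± 12.1 CPM over the 6 conditions, and Hadha of 189 ± 5.46 to 239 ± 7.45.

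The 2 regulators differed in enrichment. Ppara (chromosome 15, 85734983 to 85802819, plus strand) had 27.5 to 37.1 CPM in vehicle IP against 5.40 to 6.67 CPM in vehicle input, and its log2 enrichment was 2.15 ± 0.0809, 1.93 ± 0.0786 and 1.95 ± 0.0851. Ppargc1a (chromosome 5, 51454250 to 51567726, minus strand) had 81.8 to 109 CPM in vehicle IP against 45.4 to 51.1 CPM in vehicle input. Its log2 enrichment of 0.91 ± 0.0815, 0.54 ± 0.0671 and 0.62 ± 0.0423 passed the p threshold but not 2-fold in any experiment. Among the 16 listed regulators, Ppara was the most enriched in each experiment, and Rxrg, a partner receptor of medium spiny neurons, was depleted (−1.33 ± 0.0673, −1.10 ± 0.105 and −1.13 ± 0.0931). Pparg was depleted in the MPTP (−1.35 ± 0.171) and SAPAP3 (−1.33 ± 0.196) experiments, and Esrrb was enriched in the MPTP (1.64 ± 0.256) and R6/2 (1.00 ± 0.234) experiments.

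Other genes of fatty acid metabolism were enriched to different extents. In the uptake list, Slc27a1, a fatty acid transporter, was enriched by 1.85 ± 0.0586, 1.78 ± 0.0617 and 1.88 ± 0.0420 (log2, in the MPTP, SAPAP3 and R6/2 experiments), and Dbi, the acyl-CoA binding protein, by 1.55 ± 0.0613, 2.16 ± 0.106 and 1.79 ± 0.0764. Cd36, a scavenger receptor of endothelium and microglia, was depleted (−2.63 ± 0.306, −2.29 ± 0.255 and −1.11 ± 0.138). Of the textbook PPAR targets, 15 of 23, 17 of 23 and 17 of 24 tested were over 2-fold enriched and none was depleted, led by Vnn1 (2.54 ± 0.203, 3.16 ± 0.328 and 2.67 ± 0.366) and Cpt1a. Of the ketone body genes 3, 3 and 2 of 8 were enriched, with Bdh2 (2.02 ± 0.110, 2.80 ± 0.145 and 2.39 ± 0.135) the highest in each. In peroxisomal oxidation 6, 8 and 9 of 16 passed 2-fold, in the carnitine shuttle 5 of 9, 5 of 9 and 5 of 10, in activation 11 of 19, 10 of 18 and 10 of 18, and in synthesis 12, 11 and 10 of 19, with none depleted in any. The acyl-CoA thioesterase Acot11 (2.54 ± 0.0610, 2.32 ± 0.0931 and 2.48 ± 0.0449) and the desaturase Fads2 (2.25 ± 0.0423, 2.18 ± 0.0734 and 2.33 ± 0.0487) were among the most enriched of activation and synthesis. Lipid droplet genes passed in 3, 5 and 5 of 13, and Plin2, a droplet coat protein, was the highest in each (1.60 ± 0.0961, 2.05 ± 0.109 and 2.05 ± 0.0866).

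The genes whose profile over the 12 group means was closest to each member were found by the root mean square difference of centred log2 CPM among 13214 genes with a mean of at least 1 CPM; this is a description. For Hadha the closest were Eci2 (0.0704), another mitochondrial oxidation enzyme, then Bckdha and Etfdh (0.0732 and 0.0821), against a median of 0.738 over all genes. For Cpt1a they were Fgfr3 (0.0883), Cbs and Nr2e1, for Acsl6 Sfxn5 (0.0759), Acss1 and Bmpr1b, and for Acsbg1 Slc39a12 (0.0935), Mlc1 and Gldc. For Ppargc1a they were Arhgef12 (0.0523), Slc20a1 and Lmbrd1, for Ppara Psd2 (0.0909), Gareml and Amot, and for Acaa2 Pygl (0.120), Fam69c and Fmo1. Acsl3 had Lix1 (0.103), Dapp1 and Fam213a. The binding proteins had the most distant nearest genes, Gadd45g (0.182), Ces5a and Riiad1 for Fabp5 and Id1 (0.239), Notum and Ech1 for Fabp7. For the other 8 members the nearest gene lay at 0.120 or closer.

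After MPTP, all 10 members were lower in the astrocyte precipitate than after vehicle, by 0.07 to 0.40 on the log2 scale, but none passed the test across all genes. With edgeR's quasi-likelihood test and Benjamini-Hochberg adjustment, 0 of 10 members and 0 of 15069 genes (0%) had an adjusted p under 0.05. The members' median log2 fold change was −0.26, against 0.0056 over all genes, of which 48.1% were lower. At an unadjusted p under 0.05, 8 of 10 members were lower, against 7.33% of all genes, and 1692 genes differed in either direction. For 5 members no MPTP library reached the level of a vehicle library, against 5.51% of all genes that did not overlap and were lower.

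**Figure D3:**
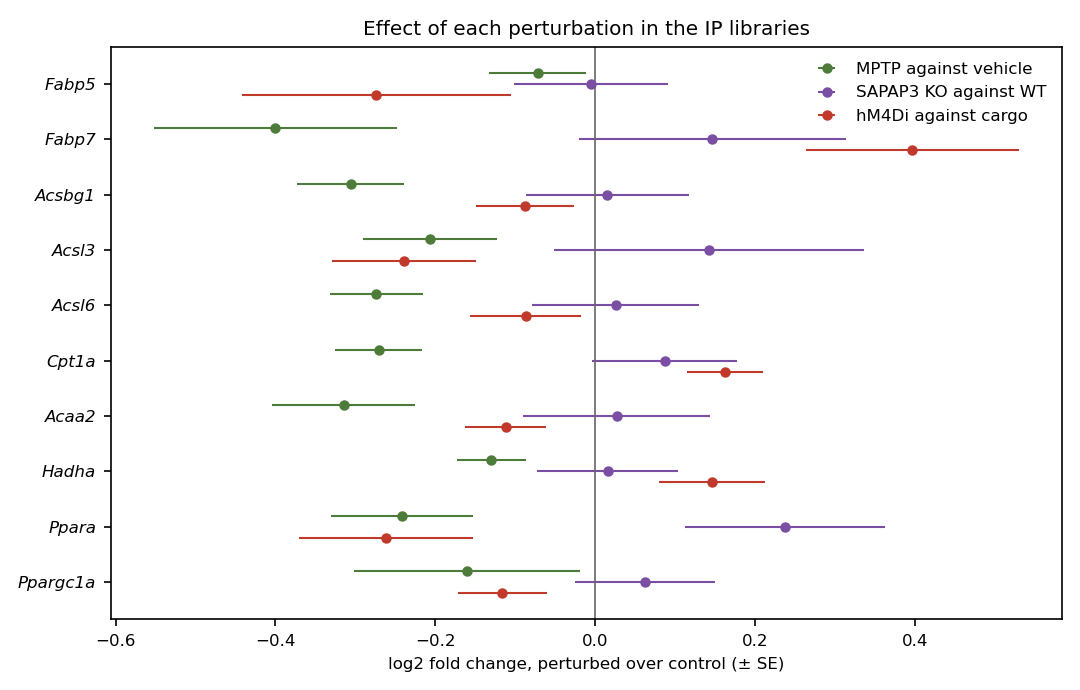
Log2 fold change of perturbed over control IP libraries (horizontal axis, ± SE, 4 against 4) for MPTP, SAPAP3 knockout and hM4Di (colours). The MPTP points all lie left of 0, from −0.40 (Fabp7) to −0.07 (Fabp5), the knockout points lie near 0, and hM4Di points lie on both sides, from −0.27 (Fabp5) to 0.40 (Fabp7).

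The lowest p-values were those of 2 activating enzymes and the carnitine step. Acsbg1 had 1055, 886, 957 and 960 CPM in vehicle IP libraries and 718, 766, 771 and 841 in MPTP IP libraries. The groups did not overlap, and the log2 fold change was −0.31 ± 0.0671 (edgeR adjusted p = 0.138). Acsl6 had 926, 802, 913 and 911 CPM in vehicle and 704, 719, 742 and 749 in MPTP libraries (−0.27 ± 0.0579, edgeR adjusted p = 0.129). Here too every MPTP library was below every vehicle library, although vehicle replicate 2 lay near them. Cpt1a had 198, 169, 186 and 191 CPM in vehicle and 153, 156, 151 and 151 in MPTP libraries. Its log2 fold change of −0.27 ± 0.0547 had the lowest adjusted p of the members (0.117, edgeR). Without vehicle replicate 2, Cpt1a and Acsl6 passed (edgeR adjusted p = 0.0360 for both).

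The oxidation enzymes lay lower as well. Acaa2 had 90.8, 74.0, 77.1 and 73.6 CPM in vehicle and 53.0, 63.8, 67.7 and 66.9 CPM in MPTP IP libraries (−0.31 ± 0.0893). Hadha had 219, 204, 205 and 209 CPM against 190, 182, 191 and 195 (−0.13 ± 0.0435). In both genes the groups did not overlap, and neither passed (edgeR adjusted p = 0.238 and 0.303). Of the 19 mitochondrial oxidation genes all were lower, with a median of −0.14, and of the 9 carnitine genes tested 8 were lower (median −0.09), with none called in either list. Ketone body genes lay on both sides (4 higher, 4 lower, median 0.02), as did the regulators (8 and 8, median 0.0013).

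In the remaining members the groups overlapped. Fabp7 had 25.8, 27.7, 27.9 and 33.7 CPM in vehicle and 29.3, 18.7, 18.7 and 19.7 CPM in MPTP IP libraries. MPTP replicate 1 thus lay within the vehicle range and the other 3 well under it, and the log2 fold change was −0.40 ± 0.152 with that replicate and −0.59 ± 0.0921 without it (edgeR adjusted p = 0.378 and 0.0555). Ppargc1a had 106 CPM in MPTP replicate 1 and 68.1 to 82.8 in the others, against 81.8 to 109 in vehicle, so 2 of the 4 MPTP libraries lay within the vehicle range. Its log2 fold change of −0.16 ± 0.141 ran from −0.31 without MPTP replicate 1 to −0.07 without MPTP replicate 3, and was −0.08 without vehicle replicate 4. Acsl3 was at −0.21 ± 0.0840, Ppara at −0.24 ± 0.0887 and Fabp5 at −0.07 ± 0.0612 (from −0.13 without MPTP replicate 1 to −0.04 without MPTP replicate 4).

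In input libraries the members' median was −0.03 with 7 lower and 3 higher, and 0 of 10 and 0 of 15601 genes (0%) were called by edgeR, with 1289 genes at an unadjusted p under 0.05 and 68 called by DESeq2. Set against the effect in input, the effect in IP was more negative for all 10 members (median −0.21, from −0.40 for Ppara to −0.05 for Ppargc1a). It was also more negative for all 20 astrocyte markers (median −0.19), and for 52.4% of all genes (median −0.0092). It passed for 0 of 10 members and 0 of 15862 genes (0%) with edgeR, with 1266 genes at an unadjusted p under 0.05 and 55 called by DESeq2, so the effects in IP and input were not shown to differ. The lowest adjusted p of a member was 0.438 (edgeR), and with the mouse as a block it was 0.182 (Acaa2), with 0 members and 0 genes called. That block treated the mismatched libraries of MPTP replicate 2 as a pair from the same mouse. The ratio of IP to input in each replicate was lower in all MPTP than in all vehicle replicates for 6 of 10 members (Acsbg1, Acsl3, Acsl6, Acaa2, Hadha and Ppara), against 4.61% of all genes. For Acaa2 it ran from 2.71 to 3.28 after MPTP and from 3.42 to 4.05 after vehicle, and for Hadha from 2.30 to 2.46 and from 2.60 to 2.75. Without MPTP replicate 2, whose 2 titles name different mice, the count was 7 of 10, against 6.27% of all genes.

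Marker lists lay to either side of 0 in the same IP libraries. Of the astrocyte markers 19 of 20 were lower after MPTP (median −0.22), with a summed level of 36830 to 46310 CPM in vehicle and 34980 to 38630 CPM in MPTP libraries. Of the oligodendrocyte markers 10 of 12 were higher (median 0.21), of the microglial markers 14 of 15 (median 0.28) and of the medium spiny neuron markers 14 of 15 (median 0.10). Their summed levels were 6467 to 9723 against 7900 to 9728 CPM, 77.1 to 86.4 against 79.0 to 90.9 CPM, and 7381 to 8147 against 6136 to 10250 CPM. The largest medians were those of 13 pan-reactive genes (12 higher, 0.45; 2623 to 3422 against 2516 to 4863 CPM) and 9 ependymal and choroid plexus markers (all higher, 0.39; 114 to 219 against 149 to 214 CPM). Oligodendrocyte precursor markers were lower in 8 of 10 (median −0.19; 500.0 to 545 against 405 to 524 CPM) and interneuron markers in 8 of 11 (median −0.16; 1245 to 1539 against 1126 to 1272 CPM). Pan-neuronal markers were higher in 11 of 12 (median 0.11), and vascular markers lay on both sides (7 and 7). None of these markers passed, none of the lists had a gene at 0, and their part in the members' levels was not tested.

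No member passed the test between SAPAP3 knockout and wild-type mice. In IP libraries 0 of 10 members were called by edgeR, against 4 of 15198 genes (0.0263%), and all 10 groups overlapped. Of the differences 9 lay above 0 and 1 below, with a median of 0.04, and 6 members changed sign in at least 1 alternative analysis. The largest was Ppara, with 23.4, 23.8, 30.8 and 27.2 CPM in WT and 25.5, 29.8, 36.9 and 31.3 CPM in KO libraries (0.24 ± 0.125, 95% interval −0.07 to 0.54). For Acsl3, with its wide spread, the interval ran from −0.33 to 0.62, and for Hadha from −0.20 to 0.23. In the same libraries all 20 astrocyte markers were higher in KO (median 0.14; summed level 32260 to 44430 CPM in WT and 39180 to 48380 CPM in KO) and all 15 medium spiny neuron markers were lower (median −0.26; 5331 to 8435 and 4665 to 6386 CPM). Microglial markers were higher in 14 of 15 (median 0.58; 82.3 to 130.5 and 94.1 to 213 CPM). None of these markers passed, and their part in the members' levels was not tested.

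In input libraries 0 of 10 members were called, against 1 of 15591 genes (0.00641%). Cpt1a had 37.4, 36.9, 36.2 and 36.1 CPM in WT and 34.0, 35.7, 34.6 and 32.1 CPM in KO input libraries. Hadha had 75.3, 70.6, 71.4 and 73.0 CPM against 66.9, 68.5, 70.4 and 70.0. In both the KO libraries lay under all WT libraries by a narrow margin (−0.10 ± 0.0535 and −0.07 ± 0.0461), as was so for 267 of all 15591 genes (1.71%), and neither difference passed. The difference between IP and input effects was called for 0 of 10 members and 0 of 16059 genes (0%) by edgeR, with 203 genes at an unadjusted p under 0.05 and 1 called by DESeq2. Without WT replicate 4 and KO replicate 1 no member was called in any of these comparisons.

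In R6/2 mice with hM4Di, many genes of the IP libraries differed from control cargo, and the members lay within 0.40 of it on the log2 scale and on both sides. Of 15159 genes, 2227 (14.7%) were called by edgeR, 1374 higher and 853 lower, and of the 10 members only Cpt1a was called. With upper-quartile scaling 1221 of 2411 calls were higher, and with limma on log2(FPKM + 1) 1545 of 2061. With hM4Di 3 members were higher and 7 lower (median −0.10).

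Cpt1a had 170, 156, 176 and 156 CPM in cargo and 183, 189, 172 and 181 CPM in hM4Di IP libraries. The hM4Di libraries were higher on average, with 1 of them inside the cargo range, and the log2 fold change was 0.16 ± 0.0472 (edgeR adjusted p = 0.0499). The call was lost when any 1 of the 8 libraries was left out (adjusted p from 0.0548 to 0.126). Hadha had 230, 227, 232 and 187 CPM in cargo and 230, 239, 239 and 248 CPM in hM4Di IP libraries (0.15 ± 0.0663, edgeR adjusted p = 0.169), and its log2 fold change was 0.07 without cargo replicate 4. Acaa2, at 94.2, 94.1, 81.3 and 95.4 CPM with hM4Di, was below all 4 cargo libraries but did not pass (−0.11 ± 0.0509, edgeR adjusted p = 0.170, and −0.07 without hM4Di replicate 3); groups did not overlap for 23% of all genes, in either direction.

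The binding proteins lay on opposite sides. Fabp7 had 33.4, 29.7, 34.7 and 25.6 CPM in cargo and 31.4, 39.1, 46.6 and 43.0 CPM in hM4Di IP libraries (0.40 ± 0.133, edgeR adjusted p = 0.0747). Fabp5 had 51.1, 52.9, 61.9 and 47.5 CPM in cargo and 35.4, 33.8, 58.1 and 46.5 CPM in hM4Di libraries (−0.27 ± 0.168, edgeR adjusted p = 0.305). In both the groups overlapped, and neither passed. Fabp5 ran from −0.45 without hM4Di replicate 3 to −0.17 without hM4Di replicate 2. Without hM4Di replicate 1, Fabp7 passed (0.50 ± 0.105, edgeR adjusted p = 0.0223). Among the synthetases Acsl3 had 543, 683, 734 and 598 CPM in cargo and 551, 492, 570 and 524 CPM in hM4Di libraries (−0.24 ± 0.0901, edgeR adjusted p = 0.103), and it passed without cargo replicate 1 (adjusted p = 0.0491). Acsbg1 was at −0.09 and Acsl6 at −0.09, and without cargo replicate 3 they were at −0.03 and −0.04. Ppara was at −0.26 ± 0.109 (−0.15 without hM4Di replicate 3) and Ppargc1a at −0.12 ± 0.0554; the latter passed without cargo replicate 4 (−0.17 ± 0.0422, adjusted p = 0.0439).

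Input libraries showed no member called, against 3 of 15168 genes (0.0198%). The members' differences there ran from −0.15 (Ppara) to 0.09 (Cpt1a). The difference of the hM4Di effect between IP and input was called for 0 of 10 members and 492 of 15880 genes (3.1%). The IP and input libraries of this experiment come in pairs from 1 mouse by their titles, and with the mouse as a block 2 of 10 members and 2761 genes (17.4%) were called. These were Fabp5 (−0.23 ± 0.0652, edgeR adjusted p = 0.0240) and Fabp7 (0.34 ± 0.0951, edgeR adjusted p = 0.0215), in opposite directions, and 2 of 10 is near the share of all genes.

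The ratio of IP to input was taken in each mouse for all 10 members, and the groups overlapped for all but Fabp5 and Fabp7. For Fabp5 it was 2.59, 3.02, 2.86 and 2.66 in cargo mice and 2.32, 2.50, 2.27 and 2.39 in hM4Di mice. For Fabp7 it was 2.48, 2.16, 2.30 and 2.15 in cargo mice and 2.49, 2.65, 3.02 and 3.45 in hM4Di mice. In neither gene did the groups overlap, by a narrow margin in both. These 2 of 10 members compare with 20.6% of all genes, so the members did not stand out from other genes here. When 1 mouse was left out at a time, the blocked difference stayed on the same side of 0 in 8 of 8 fits for both genes. It missed the threshold for Fabp5 without cargo replicate 2 or 3 or hM4Di replicate 1 or 3 (edgeR adjusted p = 0.0688, 0.0568, 0.0570 and 0.0665), and for Fabp7 without cargo replicate 2 or 4 or hM4Di replicate 3 or 4 (0.0537, 0.0547, 0.0525 and 0.0626).

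**Figure D4:**
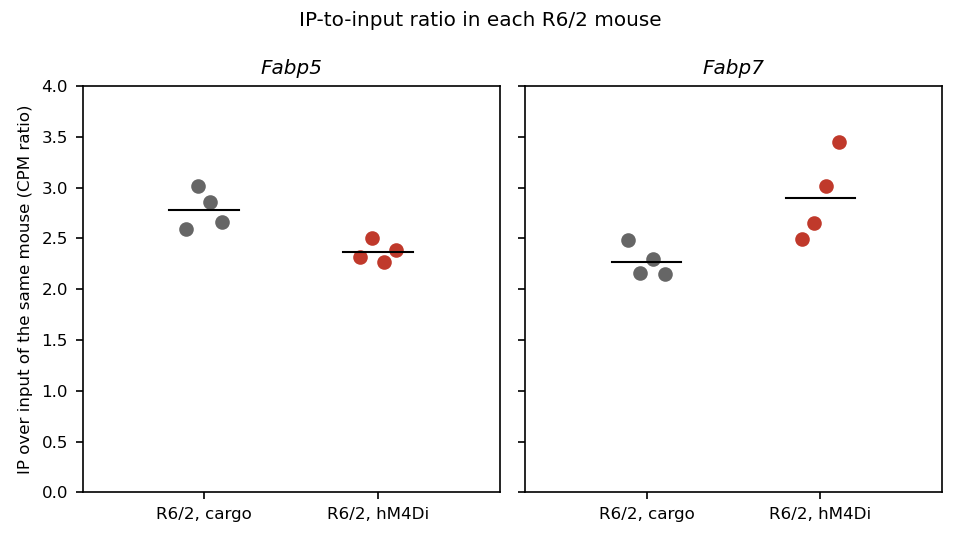
Ratio of IP to input CPM (vertical axis, from 0) of Fabp5 and Fabp7 in each R6/2 mouse (points, 4 per group; bars are means) with control cargo or hM4Di. The Fabp5 ratios of hM4Di mice (2.27 to 2.50) lie under those of cargo mice (2.59 to 3.02), and the Fabp7 ratios lie above (2.49 to 3.45 against 2.15 to 2.48). The groups overlapped for the other members, which are not drawn.

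Around the members, genes of fatty acid and ketone metabolism rose more often than they fell with hM4Di in IP libraries. Over 10 pathway lists, 137 of 143 genes were tested and 26 were called, of which 24 rose and 2 fell. Of all 15159 genes 14.7% were called, 1374 higher and 853 lower. The share of pathway genes called was thus only a little above that of all genes, and no set test was run. All 26 kept their direction under 5 other scalings or tools, and 11 of them passed with any 1 of the 8 libraries left out. The count fell to 14 without cargo replicate 1 or without hM4Di replicate 2 and to 17 without hM4Di replicate 4, and DESeq2 called 45.

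The carnitine list had 3 of 9 called, Cpt1a, Cpt2 (0.34 ± 0.0852), the inner-membrane partner enzyme, and the carnitine transporter Slc22a5 (0.31 ± 0.0785). In the 8 fits with 1 library left out, Cpt1a passed in 0, Cpt2 in 2 and Slc22a5 in 4. In mitochondrial oxidation 2 of 19 rose, the very long-chain dehydrogenase Acadvl (0.27 ± 0.0523) and the short-chain one, Acads (0.32 ± 0.0652), with a list median of 0.14. In peroxisomal oxidation 3 of 16 rose, among them Acox3 (0.22 ± 0.0430) and Hacl1 (0.27 ± 0.0603). Among regulators Ppard, the widely expressed PPAR, rose (0.55 ± 0.0917) as did Lpin1 (0.28 ± 0.0613), and the corepressor Ncor1 fell (−0.19 ± 0.0392). Ppara and Ppargc1a, in the same list, were lower and not called. Acadvl, Acads, Acox3 and Ppard passed in all 8 fits with 1 library left out, Ncor1 in 7, Hacl1 in 6 and Lpin1 in 5.

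In activation (2 of 18), uptake (1 of 15), lipid droplets (2 of 13) and mitochondrial oxidation (2 of 19) the share called was near or under the 14.7% of all genes. For peroxisomal oxidation (3 of 16), the PPAR targets (4 of 23) and the regulators (2 higher and 1 lower of 16) it was a little above. Ucp2, a mitochondrial carrier and PPAR target, rose most (1.34 ± 0.220). The monocarboxylate transporter Slc16a1 (0.51 ± 0.0812), Bdh2 (0.59 ± 0.133) and Bdh1 (0.22 ± 0.0561) rose among 8 ketone body genes. Of 19 synthesis genes 5 rose, among them the elongases Elovl7 (0.74 ± 0.0949) and Elovl1 (0.72 ± 0.102), Srebf1 (0.27 ± 0.0429) and Scd3 (0.84 ± 0.198), while Elovl4 (−0.19), named after its value was seen, fell. Plin3 (0.53 ± 0.0769) and the lipase coactivator Abhd5 (0.34 ± 0.0880) rose among 13 droplet genes, Acot2 (0.29 ± 0.0655) and Acss3 (0.49 ± 0.120) among 18 activation genes, and Acbd4 (0.32 ± 0.0679) among 15 uptake genes. Ucp2, Slc16a1, Elovl7, Elovl1, Srebf1 and Plin3 passed in all 8 fits with 1 library left out. Acbd4 passed in 7 of them, Bdh2 in 5, Acot2 in 4, Acss3 and Elovl4 in 3, Scd3 in 2, and Bdh1 and Abhd5 in 1. With the IP effect set against the input effect, Elovl7 (0.73 ± 0.132) of 19 synthesis genes and Plin3 (0.44 ± 0.105) of 13 droplet genes were called. No gene of the other pathway lists was called there, and of all genes 492 of 15880 (3.1%) were.

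**Figure D5:**
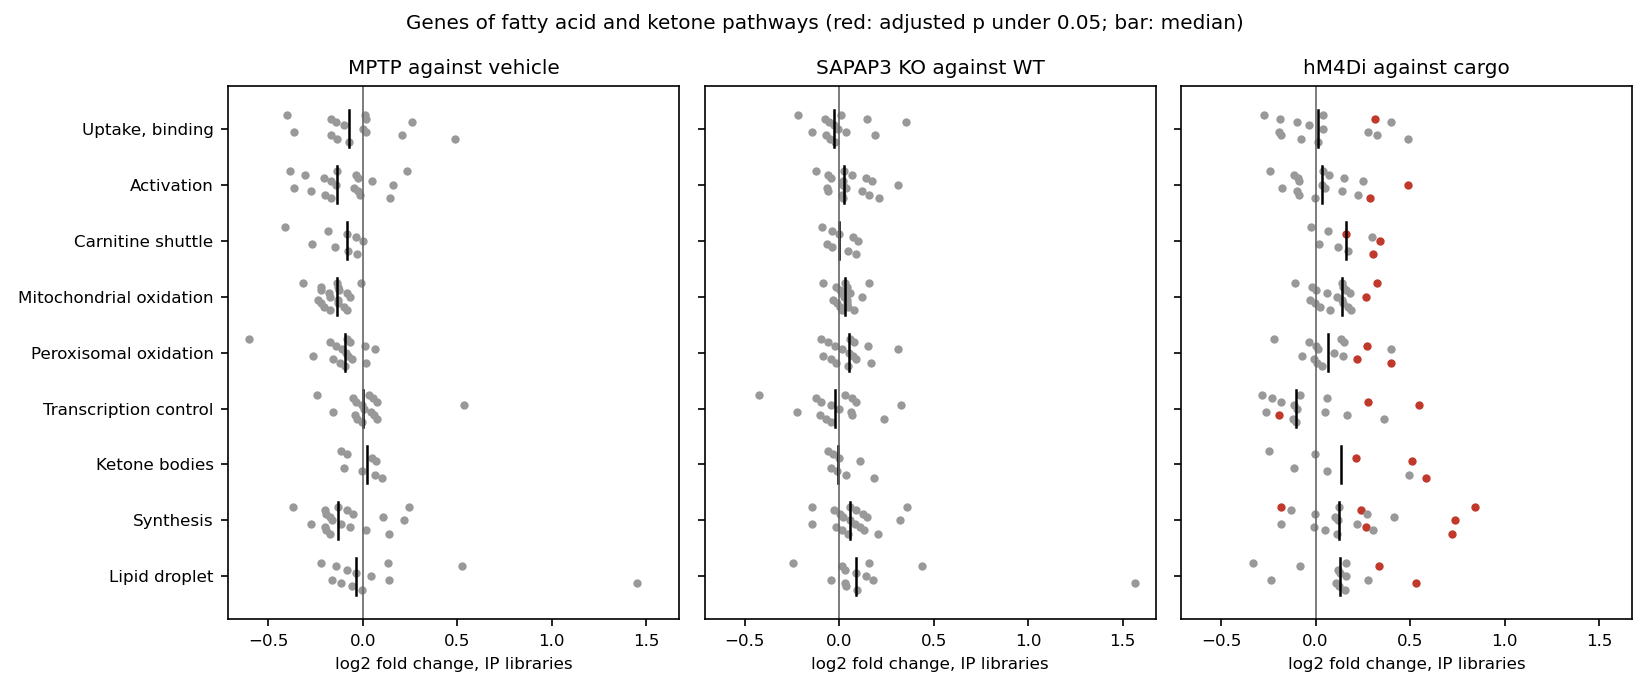
Log2 fold change in IP libraries (horizontal axis) of each gene of 9 pathway lists (rows) for MPTP, SAPAP3 knockout and hM4Di; red points passed an adjusted p of 0.05 and bars are list medians. No point is red for MPTP or knockout; with hM4Di the medians of mitochondrial oxidation (0.14) and the carnitine shuttle (0.16) lie right of 0.

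Markers of other cells moved with hM4Di in these libraries. All 12 oligodendrocyte markers rose in IP (median 0.83), with a summed level of 2984 to 4186 CPM in cargo and 5384 to 7608 CPM in hM4Di libraries, and all 12 also passed for the difference between IP and input. Of the medium spiny neuron markers 9 of 15 fell (median −0.46; 2965 to 4611 against 2550 to 2713 CPM). Of the astrocyte markers 2 rose and 3 fell (median −0.04; 28570 to 32660 against 23720 to 25590 CPM), and of 11 pan-reactive genes tested 5 rose (median 1.03). Of 12 pan-neuronal markers 3 fell (median −0.21), and 13 of 14 microglial markers were higher with none called (median 0.29). No gene of the oligodendrocyte, medium spiny neuron or astrocyte lists was at 0 in these groups. Their part in the members' and pathway genes' levels was not tested.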

How the data were processed

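RNA of 24 IP and 24 input libraries was sequenced after ribosomal depletion with a stranded kit, per the labels' protocols. The authors deposited raw read counts per gene symbol and FPKM; STAR, HTSeq and mm10 are named in the submitters' processing notes, without versions. The deposited FPKM equal each count divided by a gene length and the library total. Members and gene lists were chosen with earlier results of these data known. Counts were tested with edgeR 4.0.16 (quasi-likelihood F test, R 4.3.3) after filterByExpr (minimum count 10) and TMM scaling, 4 libraries against 4, or 16 for IP against input and for the difference of effects. P-values were adjusted by Benjamini-Hochberg over all genes tested (threshold 0.05), and enrichment also needed 2-fold. SE is the log2 fold change divided by the root of F. Intervals are nominally 95% and use only the residual degrees of freedom of 4 against 4 libraries. They are therefore wider than the p-values of the F test would give. P-values of 4 libraries against 4 measure the spread between replicate mice as labelled. For IP against input and for the difference of effects, the main fits held no term for the mouse. They took the IP and input libraries of a mouse as independent, so those p-values do not measure the spread between mice.

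All members are named, together with up to 4 called genes of each pathway list by smallest p, or those with the largest changes for IP against input. Some genes that this rule selects are not reported here. Alternatives were other scalings, DESeq2 1.42.0, limma 3.58.1 (voom, and log2(FPKM + 1)), other filters, a replicate block, 16 libraries in 1 fit and each replicate left out. IP and input libraries pair by title, but those of MPTP replicate 2 do not match and were paired by replicate number. Residuals of all pairs correlated by 0.153 to 0.507 (MPTP), 0.377 to 0.632 (SAPAP3) and 0.492 to 0.746 (R6/2). The lowest MPTP value, 0.153, was that of the mismatched pair, but vehicle replicate 4, whose titles match, was close to it at 0.161. Control and perturbed mice share only a number. The tests of perturbed against control and of IP against input were run on simulated data, with libraries drawn independently. The test of the difference of effects was not simulated. Gene positions are from GENCODE M21 (GRCm38).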

Additional observations from a re-analysis of the deposited data

Results flagged for a closer look

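In 7 of 120 groups of 4 libraries (10 genes in 12 groups), 1 library stood apart from the other 3 by more than Dixon's 95% limit on the gap as a share of the group's range, where chance gives about 1 in 20 groups. Fabp7 was at 29.3 CPM in MPTP IP replicate 1, against 18.7 to 19.7 in the other MPTP IP libraries. Acsl6 was at 802 CPM in vehicle IP replicate 2, against 911 to 926 in the others. Acaa2 was at 81.3 CPM in hM4Di IP replicate 3, against 94.1 to 95.4, and at 68.6 CPM in WT IP replicate 3, against 52.6 to 54.4. Acsbg1 was at 1050.0 CPM in cargo IP replicate 3, against 856 to 877. Hadha was at 187 CPM in cargo IP replicate 4, against 227 to 232. Fabp5 was at 40.8 CPM in WT input replicate 2, against 37.3 to 37.8.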

How the results depend on the processing

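The number of members called was the same under all alternatives run in 7 of the 12 comparisons. For IP against input it was 8 in the MPTP experiment and 9 in the SAPAP3 experiment, and Fabp5 lost 2-fold with upper-quartile scaling (0.94, MPTP) and with limma on log2(FPKM + 1) (0.84 and 0.95). For MPTP in IP it was 0 with edgeR, 3 with DESeq2, 4 with all 16 libraries in 1 fit, and 0 to 2 with 1 replicate left out (2 without vehicle replicate 2). For hM4Di in IP it was 1 with edgeR and 0 with relative log expression scaling, upper-quartile scaling, limma-voom, a filter at a mean CPM of 1, only a 1-read filter, or the replicate block, 3 with DESeq2 or 16 libraries in 1 fit, and 0 to 1 with 1 replicate left out. For the difference of the hM4Di effect between IP and input it was 0, and 2 with the mouse as replicate block. The cause of these changes was not tested. Over all genes, calls for MPTP in IP were 0, against 302 with DESeq2, 289 in the 16-library fit and 65 without vehicle replicate 2. For hM4Di in IP they were 2227, against 3491 and 3636, and 892 to 2130 with 1 replicate left out (892 without cargo replicate 1, 1084 without hM4Di replicate 2, 1409 without cargo replicate 4). For the difference of the hM4Di effect they were 492, against 1154 with DESeq2, 2761 with the block and 91 to 433 with 1 replicate left out. DESeq2 called 8 genes in each SAPAP3 fraction and 53 in hM4Di input, against 4, 1 and 3. With limma on log2(FPKM + 1), 2026, 1927 and 1789 genes differed over 2-fold between IP and input, against 4202, 4013 and 3756. Upper-quartile scaling moved the median of all genes there by −0.14, −0.14 and −0.12. No member changed sign in 170 alternative values for MPTP in IP, in 170 for hM4Di in IP or in IP against input, while 6 members did so at least once for the knockout in IP, 4 in MPTP input, 4 in knockout input and 5 in hM4Di input. Same-numbered control and perturbed mice correlated by −0.474 to 0.489, so the replicate block between them is no pairing. Cpt1a under that block was at 0.16 (adjusted p = 0.116). The members had at least 152 reads in each library, and the effect of depth on their calls was not tested. The fits without the 2 SAPAP3 mice with Xist reads, the ratios without MPTP replicate 2, and the left-out mice and other tools for the blocked difference and the pathway count were chosen after seeing the data.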
